A study of Mus musculus with 12 samples.

Results

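The genes described here are 42 immediate early genes, the primary response genes that a cell transcribes at once when a stimulus arrives, before any new protein has been made. They were chosen by symbol and cover the AP-1, EGR, KLF and NR4A transcription factors, the IER and ID families, and regulators of signalling and of mRNA decay. All 42 matched a row among the 27179 genes of the count table, and 41 of them passed the filter on low counts. The exception was Arc, a neuronal cytoskeletal protein gene, with 38 reads in all 12 libraries together and 0 in 1 library with both compounds, which allows up to 0.0957 CPM there. The list was put together with results of these data known, but which values guided it is not recorded. Doxycycline against control was taken as the comparison used, because Fos and Egr1 are among its largest differences. That comparison is therefore given as a description with no p-value.

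The cells were MC38-idAdpgkG, a single line engineered from MC38, a colon carcinoma of C57BL/6 mice. They carry an inducible, degradable neoantigen, the mutant Adpgk (R304M) joined to turboGFP, which doxycycline switches on and which the degrader dTAG-13 directs to the proteasome. The control group had mouse IFNg (interferon-gamma) at 20 ng/mL for 51 h and nothing else. The doxycycline group had the same IFNg plus 1 µg/mL doxycycline for 51 h. The dTAG-13 group had IFNg for 48 h and then 1 µM dTAG-13 for the last 3 h, with no doxycycline. The group with both had IFNg and doxycycline throughout and 1 µM dTAG-13 for the last 3 h. Every group thus carried IFNg, and no group was left without it. Doxycycline itself and the transgene it induces cannot be told apart in this design. No vehicle is listed for the groups without dTAG-13, so dTAG-13 and the step of adding it cannot be told apart either.

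The 3 libraries of a group came from the same culture and are technical replicates per the labels, so that SDs, standard errors and p-values measure the spread between libraries of 1 culture. Library totals ranged from 22165538 to 32809573 reads and TMM scaling factors from 0.96472 to 1.0349. The factors separated by group: 0.96472 to 0.97161 in control, 0.99097 to 0.99493 with doxycycline, 1.0027 to 1.0124 with both and 1.03 to 1.0349 with dTAG-13. Adpgk, the gene that the transgene carries in mutant form, stood at 157.6 to 162 CPM in control, 1316 to 1355 with doxycycline, 176.7 to 184.9 with dTAG-13 and 1351 to 1379 with both. Of 10 epithelial markers none reached a mean of 1 CPM, although the line is labelled a colon carcinoma, and Epcam and Cdx2 had no read. Of 9 mesenchymal markers 6 did, and their summed level was 2499 to 2566 CPM in control, 2261 to 2282 with doxycycline, 1815 to 1842 with dTAG-13 and 1587 to 1637 with both. Of 9 immune and endothelial markers only Pecam1 reached 1 CPM, and that list summed to 1.917 to 4.247 CPM over the 12 libraries. The part of these marker levels in the results below was not tested.

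Immediate early genes are held ready for transcription by factors already in the cell. ERK signalling acts through SRF and its ELK partners on CArG boxes, and cyclic AMP and stress kinases act through CREB and ATF proteins on the cyclic AMP response element (CRE). Their mRNAs are short-lived, so that their level follows recent transcription closely. Their products include the FOS and JUN proteins that pair into AP-1, the EGR and KLF zinc fingers, and inhibitors such as DUSP1, ZFP36 and the ID proteins that limit the same signals. In cultured carcinoma cells they are known for responding to serum, medium changes, stress and matrix contact as well as to added compounds.

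The stretch upstream of the start site is where factors of this kind can bind, and it is printed for a few genes on which the results turn. Fos, Dusp1 and Klf6 were among the members with the largest rise when dTAG-13 was added to doxycycline cells, Fosl2 fell in the same comparison, and Zfp36 holds a CArG box. The 250 bases before the start are given 5′ to 3′, from RefSeq on GRCm38.p6. Capitals mark a TATA box (TATAAA) in Fos, a CRE (TGACGTCA) in Dusp1, an EGR site (GCGNGGGCG) in Fosl2, and an EGR site followed by a CArG box in Zfp36. The shorter core of the CRE, TGACG, was also searched but is not put in capitals. It stands in lowercase at 2 places in the Fos stretch and also outside the CRE in that of Dusp1. Klf6 has no capitals, and none of the motifs searched, the core included, was in its window.
Fos: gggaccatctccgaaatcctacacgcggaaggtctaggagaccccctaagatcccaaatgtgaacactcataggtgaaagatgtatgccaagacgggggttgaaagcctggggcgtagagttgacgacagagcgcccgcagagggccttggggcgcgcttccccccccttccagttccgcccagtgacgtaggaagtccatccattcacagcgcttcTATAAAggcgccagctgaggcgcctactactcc
Dusp1: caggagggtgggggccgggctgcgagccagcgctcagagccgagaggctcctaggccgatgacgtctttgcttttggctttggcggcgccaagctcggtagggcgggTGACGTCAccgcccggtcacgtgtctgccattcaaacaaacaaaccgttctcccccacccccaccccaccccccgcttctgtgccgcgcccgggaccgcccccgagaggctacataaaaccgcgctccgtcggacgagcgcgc
Klf6: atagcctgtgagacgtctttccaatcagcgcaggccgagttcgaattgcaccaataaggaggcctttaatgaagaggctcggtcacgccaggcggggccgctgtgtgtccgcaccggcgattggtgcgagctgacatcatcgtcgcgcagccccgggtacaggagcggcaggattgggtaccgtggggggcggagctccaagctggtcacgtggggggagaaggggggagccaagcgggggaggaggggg
Fosl2: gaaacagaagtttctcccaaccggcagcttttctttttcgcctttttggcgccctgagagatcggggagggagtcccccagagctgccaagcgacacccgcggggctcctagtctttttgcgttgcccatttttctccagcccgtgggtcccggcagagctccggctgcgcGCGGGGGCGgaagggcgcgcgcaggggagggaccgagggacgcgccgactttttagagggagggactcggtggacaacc
Zfp36: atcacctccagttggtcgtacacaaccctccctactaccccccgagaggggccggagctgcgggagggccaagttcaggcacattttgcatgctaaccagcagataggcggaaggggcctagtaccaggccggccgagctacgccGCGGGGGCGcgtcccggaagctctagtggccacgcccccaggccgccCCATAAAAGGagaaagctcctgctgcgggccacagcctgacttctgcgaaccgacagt
The stretches lie at chr12:85473640-85473889, plus strand for Fos, chr17:26508473-26508722, minus strand for Dusp1, chr13:5861239-5861488, plus strand for Klf6, chr5:32136222-32136471, plus strand for Fosl2 and chr7:28379229-28379478, minus strand for Zfp36.

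RefSeq promoter entries were at hand for 32 of the 42 genes, and motifs were searched on both strands of windows from 250 bases before to 50 after each start. Egr1, Ier2, Trib1, Egr3, Fosl1, Klf10, Id1 and Hes1 were among the genes without an entry. The promoters of these genes were not searched, so the counts say nothing about them. A gene counted if any of its windows held the letters. An EGR site was found in 13 of the 32 genes (40.6%) against 8.46% of all 18458 genes with an entry. The CRE stood in 3 (9.38% against 2.56%) and its shorter core TGACG in 19 (59.4% against 26.3%), the core counting also where it lies inside a CRE. The CArG box stood in 2, Egr2 and Zfp36 (6.25% against 1.78%). An AP-1 site (TGANTCA) stood in 3 (9.38% against 8.36%) and a TATA box in 6 (18.8% against 14.5%). These matches describe the letters in the windows only, and sites further upstream, in Fos as in the other members, were not searched for. The members' transcripts were also compact: 34 of the 41 tested (82.9%) had 4 exons or fewer against 28.7% of all tested genes with a transcript model, the median was 3 exons against 8, and the median length was 2743 nt against 3400.

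The levels of the members spanned a wide range when read counts were scaled to transcript length. In CPM per kb of transcript, the control mean was 176.9 for Jun, 117.6 for Ier3, 101.2 for Gadd45a and 94.4 for Rhob, the most abundant members over the 4 groups. Fos, the best known of the class, stood at 1.24 and Fosb at 0.534, and Egr2, Egr3 and Nr4a3 at 0.468, 0.286 and 0.046. The median over the 41 tested members was 21.67 CPM per kb against 9.976 over all tested genes with a length. Read numbers behind the low members were small: 26 to 88 reads per library for Fos, 19 to 75 for Fosb, 23 to 48 for Egr2 and 2 to 15 for Nr4a3.

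**Figure D1:**
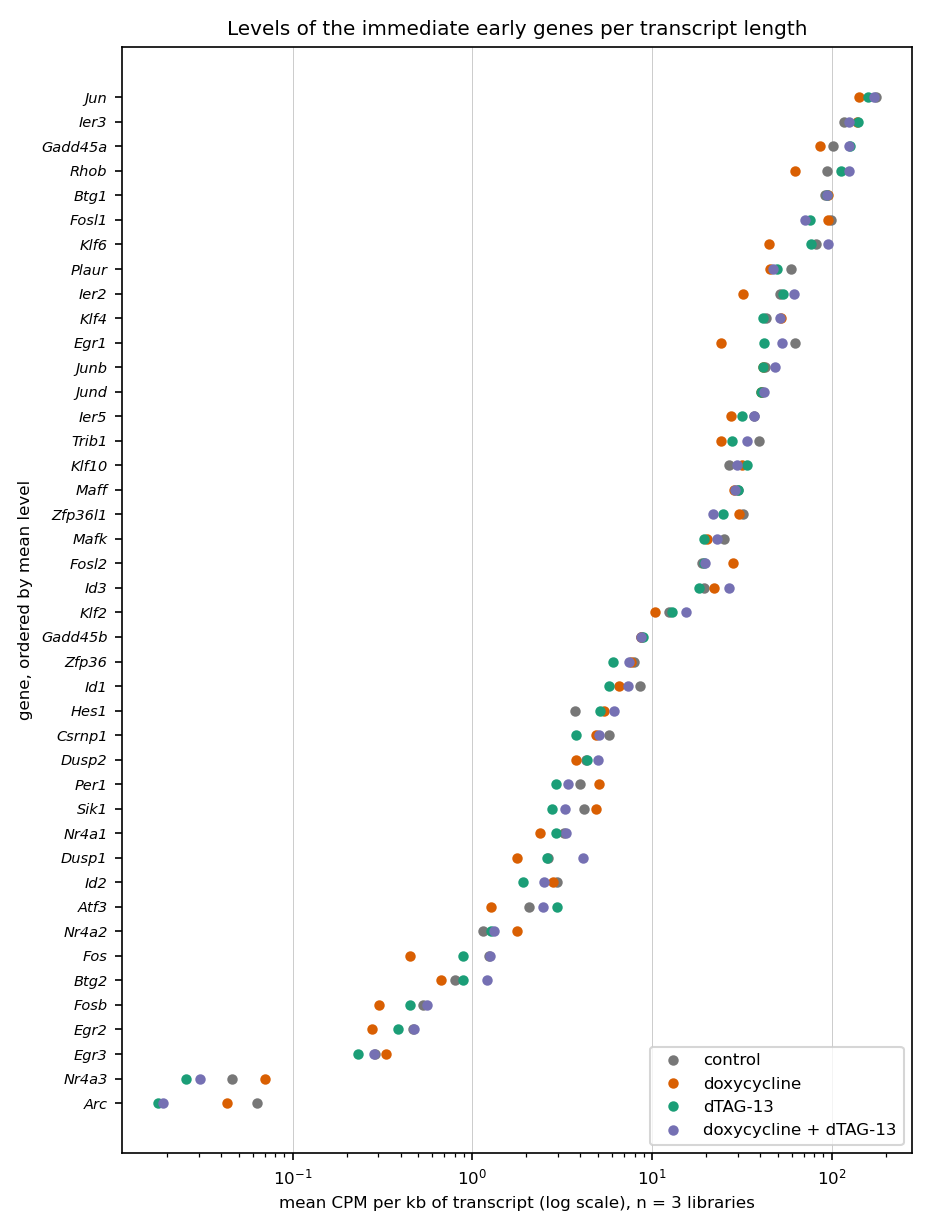
Mean CPM per kb of transcript for the 42 genes in each of the 4 groups (n = 3 libraries each), on a log axis, with the genes ordered by their mean level. Jun, Ier3, Gadd45a and Rhob lie at the top and Arc and Nr4a3 at the bottom, and the doxycycline point is set off to the left for Fos, Egr1, Klf6, Ier2 and Rhob.

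Many members had their lowest levels in the doxycycline cells. In 14 of 41 members (34.1%) all 3 doxycycline libraries lay below the other 9, against 8.33% of all tested genes: Fos, Jun, Atf3, Egr1, Egr2, Klf2, Klf6, Ier2, Ier5, Btg2, Gadd45a, Dusp1, Trib1 and Rhob. These values include the comparison that the choice of members is taken to have used. In 8 members (19.5% against 9.74%) all 3 libraries with both compounds lay above the other 9: Junb, Klf2, Klf6, Ier2, Id3, Btg2, Dusp1 and Rhob. Fosl2, Sik1 and Per1 went the other way and were highest in every doxycycline library (7.32% against 7.78%). In bulk RNA, fewer cells of a type and less RNA per cell cannot be told apart.

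**Figure D2:**
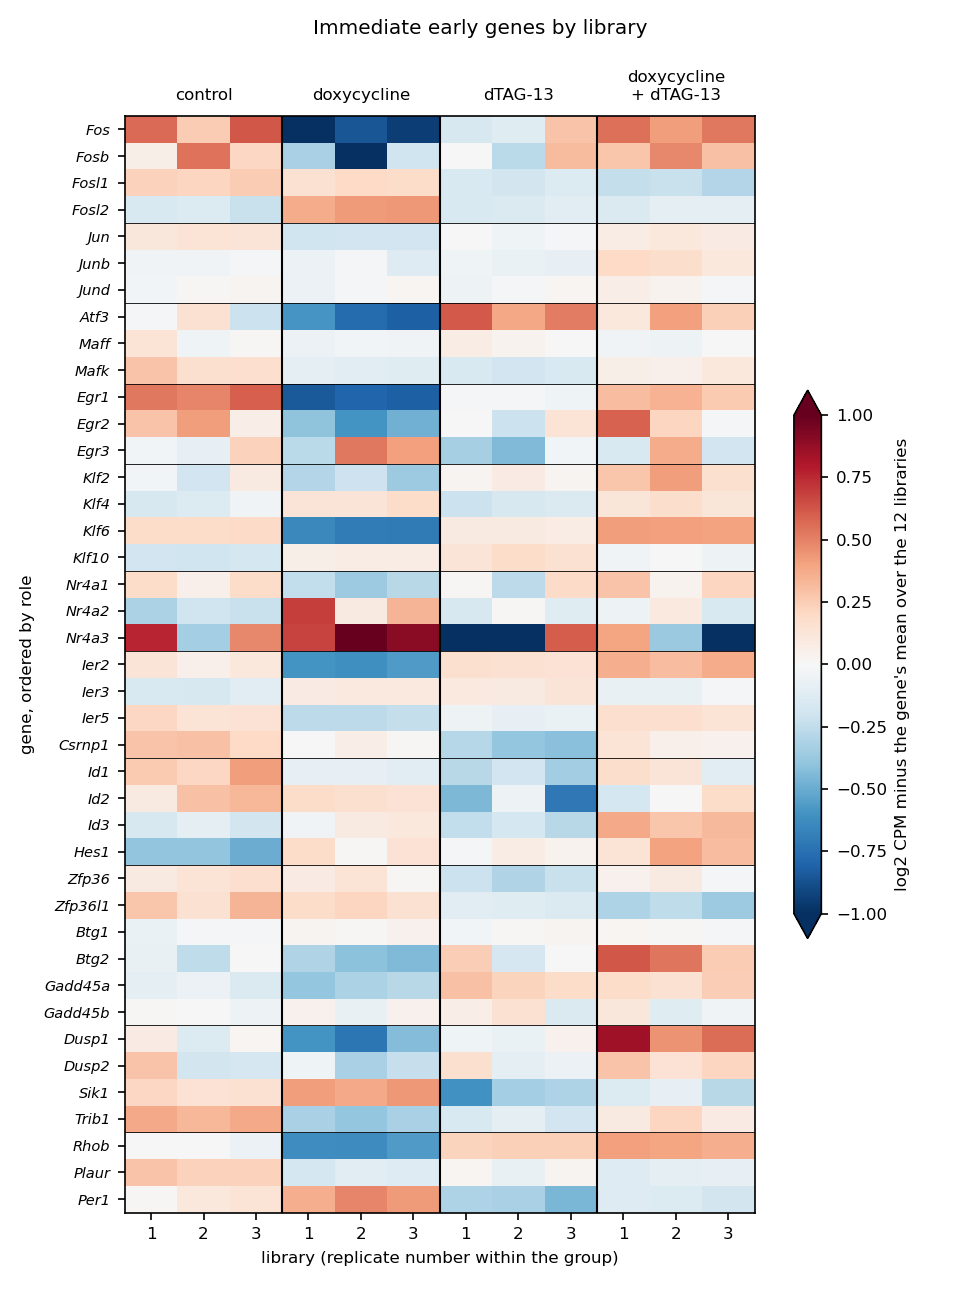
Log2 CPM of the 41 tested immediate early genes in each of the 12 libraries, minus the gene's own mean over the 12, ordered by role. Blue is below and red above that mean, colours end at -1 and 1, and the blue block in the doxycycline columns for Fos, Atf3, Egr1, Klf6, Ier2, Dusp1 and Rhob is absent from the columns with both compounds; Nr4a3 rests on 15 reads or fewer per library.

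Values are given below in CPM, the edgeR normalised read count, scaled to the TMM-adjusted library size. Differences are log2 fold changes from edgeR with their standard error (SE). A gene was called, and is said to have risen or fallen, where its adjusted p over all 12910 tested genes was under 0.05 in edgeR's quasi-likelihood test. Doxycycline with dTAG-13 against dTAG-13 alone compares the 6 libraries that the first comparison did not use, and its adjusted p-values are given. The filter and the estimated spread come from all 12 libraries, however. Whether this comparison was also seen when the members were chosen is not known, so its p-values may not be free of that choice. The dTAG-13 comparisons share the control or the doxycycline libraries with the first comparison, so their calls are given without a p-value.

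AP-1 is built from the FOS proteins, which cannot pair among themselves, and the JUN proteins, which can. Fos stood at 2.76, 2.22 and 2.87 CPM in the control libraries, 0.842, 1.03 and 0.967 with doxycycline, 1.67, 1.71 and 2.27 with dTAG-13 and 2.72, 2.48 and 2.68 with both. All 3 doxycycline libraries were below every other library, and the control libraries overlapped those with both compounds. The log2 fold change of Fos was -1.46 (SE 0.204) for doxycycline against control and 0.48 (SE 0.184) for doxycycline with dTAG-13 against dTAG-13 alone, where it missed the threshold (edgeR adjusted p = 0.0568). It passed there without dTAG-13 replicate 3 (0.64) and with a filter of 1 CPM. dTAG-13 was followed by a fall of -0.48 (SE 0.18) without doxycycline, although the libraries overlapped, and by a rise of 1.47 (SE 0.208), a 2.77-fold difference, with it. That fall was no longer called when control replicate 1 or 3, or dTAG-13 replicate 1 or 2, was left out (-0.44 to -0.40) and with scaling by library size only (-0.39).

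Fosb stood at 1.73, 2.42 and 1.92 CPM in the control libraries, 1.33, 0.633 and 1.45 with doxycycline, 1.67, 1.38 and 2.07 with dTAG-13 and 2.01, 2.32 and 2.04 with both. Fosb, a close relative of Fos, had its lowest value in doxycycline replicate 2, with 19 reads, and all doxycycline libraries were below the controls. Its log2 fold change was -0.83 (SE 0.235) for doxycycline against control, a call that was lost without control replicate 2 (-0.67) or doxycycline replicate 2 (-0.53). Against dTAG-13 alone the difference was 0.32 (SE 0.222) and was not called (edgeR adjusted p = 0.346). Fosb rose by 0.90 (SE 0.238) when dTAG-13 was added to doxycycline cells and was not called when it was added to control cells (-0.25).

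Fosl1 and Fosl2 encode FOS-related proteins without the strong activation domain of FOS, and they did not follow Fos. Fosl2 was higher with doxycycline, at 185.9 ± 3.99 CPM (SD, n = 3) against 124.5 ± 3.79 CPM in control, 127.5 ± 2.48 CPM with dTAG-13 and 129.7 ± 2.57 CPM with both. Its libraries with doxycycline alone were above the other 9, which overlapped each other. With dTAG-13 against control Fosl2 was not called (0.03), but it was called higher with the length and GC correction (0.35) and with scaling by library size only (0.12). Fosl1 was at its lowest with both, at 132.9 ± 3.12 CPM against 185.8 ± 2.32 CPM in control, and fell with dTAG-13 both without (-0.39 (SE 0.0265)) and with doxycycline (-0.43 (SE 0.027)). Its small fall with doxycycline among dTAG-13 cells (-0.09 (SE 0.0274), edgeR adjusted p = 0.0118) lost its call without both-compound replicate 3 or dTAG-13 replicate 3. Fosl1 shares part of its locus with Ccdc85b, and the strand setting of the counting is not given in the sources used here.

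Jun stood at 559.5, 568.1 and 564.8 CPM in the control libraries, 448.4, 451.5 and 452.9 with doxycycline, 514.7, 500.3 and 511.3 with dTAG-13 and 542.2, 553.7 and 546.3 with both. Jun, the main partner of FOS, had its 3 doxycycline libraries lowest and its 3 control libraries highest, with no overlap among the 4 groups. The doxycycline difference was -0.32 (SE 0.0204) against control and 0.11 (SE 0.0204) among dTAG-13 cells, a rise with an edgeR adjusted p of 0.000136. dTAG-13 was followed by a fall without doxycycline (-0.15 (SE 0.0203)) and a rise with it (0.28 (SE 0.0205)). Junb rose with doxycycline among dTAG-13 cells (0.22 (SE 0.0352), edgeR adjusted p = 5.23e-06) and with dTAG-13 among doxycycline cells (0.23 (SE 0.0353)). Jund, the JUN protein that is least inducible, was called in no comparison, with differences from -0.02 to 0.05. With the length and GC correction it was called higher with dTAG-13 among doxycycline cells (0.11).

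Other leucine zipper factors bind next to or against AP-1. Atf3 stood at 4.11, 4.61 and 3.58 CPM in the control libraries, 2.75, 2.43 and 2.35 with doxycycline, 6.33, 5.41 and 5.92 with dTAG-13 and 4.46, 5.5 and 4.88 with both. Atf3, a stress-induced repressor, was lowest with doxycycline and highest on average with dTAG-13 alone, where 1 library lay just below the highest library with both. Doxycycline differed from control by -0.71 (SE 0.141), and dTAG-13 was followed by a rise both without (0.52 (SE 0.122)) and with doxycycline (0.98 (SE 0.14), 1.97-fold). The doxycycline difference among dTAG-13 cells was -0.25 (SE 0.122) and was not called (edgeR adjusted p = 0.153). Mafk, a small MAF protein, had the same directions as Jun: -0.31 with doxycycline against control, 0.24 (SE 0.0383) among dTAG-13 cells (edgeR adjusted p = 8.76e-06), a fall of -0.37 with dTAG-13 alone and a rise of 0.18 on doxycycline. Maff was called in none of these comparisons, and higher with dTAG-13 alone when scaled by library size only (0.09).

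The EGR proteins are zinc finger activators that respond to ERK signalling. Egr1 stood at 276.9, 270.2 and 290.5 CPM in the control libraries, 107.2, 111.1 and 109.3 with doxycycline, 189.4, 189.3 and 186.6 with dTAG-13 and 238, 245.1 and 230.1 with both. The 4 groups did not overlap, in the order control, both, dTAG-13 and doxycycline from high to low. Egr1 differed by -1.35 (SE 0.0283), or 2.56-fold lower, with doxycycline against control. Among dTAG-13 cells it rose with doxycycline by 0.34 (SE 0.0275) (edgeR adjusted p = 9.08e-13). dTAG-13 was followed by a fall of -0.57 (SE 0.0271) without doxycycline and a rise of 1.12 (SE 0.0286), 2.18-fold, with it.

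Egr2 stood at 1.41, 1.55 and 1.21 CPM in the control libraries, 0.874, 0.767 and 0.828 with doxycycline, 1.16, 0.998 and 1.27 with dTAG-13 and 1.74, 1.34 and 1.15 with both. The doxycycline libraries of Egr2 were below the other 9, which overlapped. Doxycycline differed from control by -0.76 (SE 0.246), a call lost without control replicate 2 (-0.66) or doxycycline replicate 2 (-0.69). The rise with dTAG-13 among doxycycline cells, 0.75 (SE 0.253), was lost without both-compound replicate 1 (0.58), and neither other difference was called (edgeR adjusted p = 0.459 for doxycycline among dTAG-13 cells). Egr2 overlaps the non-coding gene Gm32255. Egr3, with 22 to 47 reads per library, was called in no comparison.

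The KLF proteins are zinc finger factors of GC-rich promoters. All 4 members were called for doxycycline in both settings, in mixed directions. Over all genes 33.5% were called against control and 20.4% among dTAG-13 cells. Klf6 stood at 346.7, 347.4 and 348.3 CPM in the control libraries, 195.5, 188.1 and 187.5 with doxycycline, 325.6, 325 and 321.8 with dTAG-13 and 407.5, 405.3 and 402.9 with both. No groups of Klf6 overlapped: doxycycline was lowest, dTAG-13 and control lay close together and both compounds gave the highest values. The difference was -0.87 (SE 0.023) with doxycycline against control and 0.32 (SE 0.0224) among dTAG-13 cells, a rise with an edgeR adjusted p of 7.69e-15. dTAG-13 on doxycycline cells was followed by a rise of 1.09 (SE 0.0231), 2.13-fold. The fall with dTAG-13 alone was small (-0.10 (SE 0.0224)) and lost its call with scaling by library size only (-0.01).

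Klf2 had the same directions as Klf6 for doxycycline, -0.25 with doxycycline against control and a rise of 0.24 (SE 0.0653) among dTAG-13 cells (edgeR adjusted p = 0.00594), a call lost without both-compound replicate 2 (0.17). With scaling by library size only Klf2 was also called higher with dTAG-13 alone (0.17). Klf4 was higher with doxycycline in both settings (0.26 against control, 0.31 (SE 0.0305) among dTAG-13 cells, edgeR adjusted p = 1.03e-10) and was called for dTAG-13 in neither setting, although its difference from control was called without control replicate 1 or 2 or dTAG-13 replicate 3 (-0.09 to -0.08). Klf10, known as a gene induced by TGF-beta, ran against the others. It was higher with doxycycline against control (0.26) and rose with dTAG-13 alone (0.34). It fell with doxycycline among dTAG-13 cells (-0.19 (SE 0.0312), edgeR adjusted p = 1.55e-05) and with dTAG-13 among doxycycline cells (-0.10). Klf10 overlaps the non-coding gene Gm35248.

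**Figure D3:**
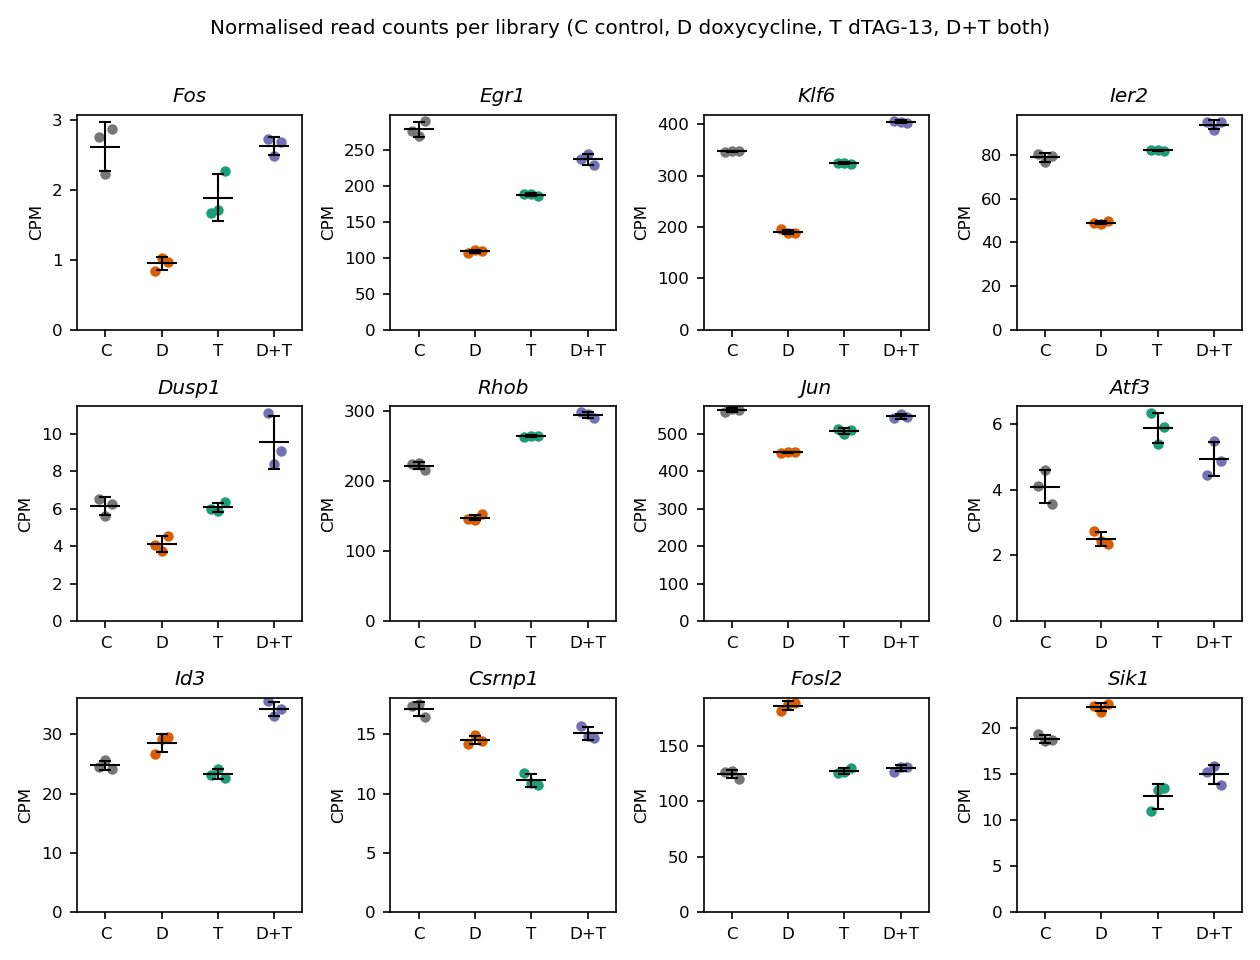
CPM in each library for 12 of the members (C control, D doxycycline, T dTAG-13, D+T both), with the mean as a dash and 1 SD as whiskers, n = 3 libraries per group, axes from 0. Fos, Egr1, Klf6, Ier2, Dusp1 and Rhob are lowest with doxycycline; with both, Klf6, Ier2, Dusp1 and Rhob lie above every control library, Fos overlaps control and Egr1 stays below it; Csrnp1 is lowest with dTAG-13 alone, and Fosl2 and Sik1 are highest with doxycycline alone.

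NR4A proteins are orphan nuclear receptors whose activity follows their amount. Nr4a1 was lower with doxycycline against control (-0.44 (SE 0.105)) and rose with dTAG-13 among doxycycline cells (0.48 (SE 0.106)). With dTAG-13 alone it was called, and lower, only without dTAG-13 replicate 3 (-0.27). Nr4a2 took the reverse course, at 0.65 and -0.43 (SE 0.128) in the same comparisons, but its high value rested partly on doxycycline replicate 1 (7.77 CPM against 5.13 and 6.08). Without that library the fall of Nr4a2 with dTAG-13 was -0.27 and was not called. Nr4a2 overlaps the protein-coding gene LOC105244150. Nr4a3 had 2 to 15 reads per library, and its fall of -1.26 with dTAG-13 among doxycycline cells lost its call without doxycycline replicate 2 or 3, without both-compound replicate 2 or 3, with DESeq2, with no filter and with the length and GC correction. With dTAG-13 alone Nr4a3 was called without dTAG-13 replicate 3 (-1.97), a library with 9 reads against 2 in each of the others. No NR4A gene was called for doxycycline among dTAG-13 cells.

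The IER genes were found as early serum-response genes. Ier2 stood at 80.6, 76.6 and 79.4 CPM in the control libraries, 48.9, 48.2 and 49.8 with doxycycline, 82.4, 82.3 and 81.7 with dTAG-13 and 95, 91.6 and 95.3 with both. Ier2 was lowest in the 3 doxycycline libraries and highest in the 3 with both, and control and dTAG-13 libraries lay between, without overlap. It differed by -0.69 (SE 0.0356) with doxycycline against control and rose by 0.20 (SE 0.0336) among dTAG-13 cells (edgeR adjusted p = 2.42e-05). dTAG-13 on doxycycline cells was followed by a rise of 0.94 (SE 0.0355), 1.92-fold, while the difference on control cells was 0.06 and was not called. With scaling by library size only that difference was 0.15 and was called. Ier5 had the pattern of Jun: -0.42, 0.22 (SE 0.0295) (edgeR adjusted p = 1.95e-07), -0.23 and 0.41 for doxycycline against control, doxycycline among dTAG-13 cells, dTAG-13 against control and dTAG-13 among doxycycline cells. Ier3, which protects cells from apoptosis, had the pattern of Klf10, with 0.23, -0.16 (SE 0.027) (edgeR adjusted p = 1.19e-05), 0.25 and -0.15 in that order.

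Csrnp1 stood at 17.4, 17.5 and 16.4 CPM in the control libraries, 14.2, 14.9 and 14.4 with doxycycline, 11.7, 10.9 and 10.7 with dTAG-13 and 15.7, 14.8 and 14.7 with both. Csrnp1, a cysteine- and serine-rich nuclear protein, had its dTAG-13 libraries below the other 9 and its controls above them. It fell with dTAG-13 alone by -0.62 (SE 0.0695) and rose with doxycycline among dTAG-13 cells by 0.43 (SE 0.0722) (edgeR adjusted p = 1.35e-05). With doxycycline against control it differed by -0.24 (SE 0.0671), and it was called for dTAG-13 among doxycycline cells with the length and GC correction (0.16) but not without it (0.05). It overlaps the non-coding gene Gm33800.

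ID proteins bind and disable basic helix-loop-helix factors. All 4 helix-loop-helix members were called higher with doxycycline among dTAG-13 cells, where 10.7% of all genes were, and the call of Id3 alone was kept in all 20 alternatives. Id3 stood at 24.5, 25.6 and 24.1 CPM in the control libraries, 26.7, 29.1 and 29.5 with doxycycline, 23.1, 24.2 and 22.6 with dTAG-13 and 35.5, 33.1 and 34.2 with both. The libraries with both compounds were above all others for Id3, and it rose with doxycycline among dTAG-13 cells by 0.55 (SE 0.054), 1.47-fold (edgeR adjusted p = 1.03e-10). It was also higher with doxycycline against control (0.20). Its rise with dTAG-13 among doxycycline cells (0.27 (SE 0.0528)) was 0.06 and not called with the length and GC correction, which gave a called fall with dTAG-13 alone (-0.21).

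Id1 stood at 9.73, 9.34 and 10.8 CPM in the control libraries, 7.67, 7.67 and 7.53 with doxycycline, 6.68, 7.11 and 6.37 with dTAG-13 and 9.14, 8.84 and 7.47 with both. Control was highest for Id1 and dTAG-13 alone lowest, without overlap with the other 9 libraries. It fell by -0.56 (SE 0.0936) with dTAG-13 alone and rose by 0.32 (SE 0.0981) with doxycycline among dTAG-13 cells (edgeR adjusted p = 0.0146). Leaving out both-compound replicate 1 or 2, or dTAG-13 replicate 3, ended that call, as did the length and GC correction (0.25 to 0.29).

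Id2 stood at 5.24, 6.02 and 6.21 CPM in the control libraries, 5.6, 5.5 and 5.45 with doxycycline, 3.6, 4.76 and 3 with dTAG-13 and 4.37, 4.91 and 5.59 with both. The dTAG-13 libraries of Id2 varied most, and 1 of them lay above 1 library with both. Id2 fell with dTAG-13 alone (-0.61 (SE 0.131)), and among doxycycline cells it was called lower with dTAG-13 only with the length and GC correction (-0.39 against -0.14). Its rise with doxycycline among dTAG-13 cells (0.40 (SE 0.138), edgeR adjusted p = 0.035) lost its call under 8 alternatives (0.26 to 0.41), among them leaving out both-compound replicate 2 or 3 or dTAG-13 replicate 1 or 3. Hes1, a Notch-responsive repressor, was lowest in all control libraries, with 0.54 for doxycycline and 0.46 for dTAG-13 against them. Its rise with doxycycline among dTAG-13 cells (0.26 (SE 0.0946), edgeR adjusted p = 0.0465) was lost under 11 alternatives, among them leaving out both-compound replicate 2 or 3 or any dTAG-13 library (0.20 to 0.29). With dTAG-13 among doxycycline cells it was called only without both-compound replicate 1 (0.23).

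A further group limits growth or shortens the life of mRNAs. Btg2 stood at 2.26, 2 and 2.38 CPM in the control libraries, 1.94, 1.8 and 1.76 with doxycycline, 2.83, 2.12 and 2.38 with dTAG-13 and 3.66, 3.46 and 2.84 with both. Btg2, which recruits the mRNA deadenylase, was lowest with doxycycline and highest with both, each without overlap. It rose with dTAG-13 among doxycycline cells by 0.84 (SE 0.171), and the difference with doxycycline among dTAG-13 cells was 0.43 (SE 0.163) and just missed the threshold (edgeR adjusted p = 0.0577). It was called there without both-compound replicate 3 or dTAG-13 replicate 1 (0.54 and 0.55). Zfp36, which binds AU-rich elements and hastens decay of such mRNAs, fell with dTAG-13 alone (-0.37) and rose with doxycycline among dTAG-13 cells (0.28 (SE 0.062), edgeR adjusted p = 0.000769). Its relative Zfp36l1 fell in that comparison (-0.18 (SE 0.0397), edgeR adjusted p = 0.00055) and with dTAG-13 in both settings (-0.38 and -0.49). Against control its doxycycline difference (-0.07) was called, and lower, without control replicate 2 (-0.11) and with the length and GC correction (-0.09). Gadd45a, a stress sensor upstream of p38, rose with dTAG-13 in both settings (0.33 and 0.52), and the length and GC correction gave a called fall with doxycycline among dTAG-13 cells (-0.11 against -0.04). Gadd45a overlaps the non-coding gene E230016M11Rik. Gadd45b was called in no comparison, although with the length and GC correction it was called lower with dTAG-13 among doxycycline cells (-0.20), and Btg1 differed by 0.06 with doxycycline against control and was not called elsewhere. That call of Btg1 was lost without control replicate 1, doxycycline replicate 3 or dTAG-13 replicate 3, with RLE factors, with DESeq2 and with the length and GC correction (0.01). With scaling by library size only Btg1 was called higher with dTAG-13 alone (0.13).

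The members also hold feedback regulators of kinase signalling. Dusp1 stood at 6.53, 5.6 and 6.25 CPM in the control libraries, 4.08, 3.73 and 4.56 with doxycycline, 5.98, 5.89 and 6.34 with dTAG-13 and 11.1, 8.41 and 9.1 with both. Dusp1, the phosphatase that switches off p38 and JNK, was lowest in the doxycycline libraries and highest in those with both, and control and dTAG-13 libraries overlapped. It differed by -0.57 (SE 0.119) with doxycycline against control. Among dTAG-13 cells it rose with doxycycline by 0.64 (SE 0.107), 1.56-fold (edgeR adjusted p = 1.3e-05), the largest difference among the 41 members in that comparison. dTAG-13 among doxycycline cells was followed by a rise of 1.2 (SE 0.114), 2.3-fold, while among control cells the difference was -0.01 (SE 0.111) and was not called. Dusp2, a nuclear phosphatase of ERK, rose by 0.41 (SE 0.115) with dTAG-13 among doxycycline cells and was not called in the other 3 comparisons.

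Trib1 stood at 173.3, 167.9 and 173.5 CPM in the control libraries, 106.7, 102 and 106.7 with doxycycline, 120.4, 124.7 and 117.1 with dTAG-13 and 141.9, 154.9 and 141.5 with both. Trib1, a pseudokinase that brings targets to the COP1 ligase, was ordered control, both, dTAG-13 and doxycycline, with no overlap. It differed by -0.71 (SE 0.0317) with doxycycline against control and rose by 0.27 (SE 0.0319) among dTAG-13 cells (edgeR adjusted p = 1.24e-08). It fell with dTAG-13 alone (-0.51 (SE 0.0313)) and rose with dTAG-13 among doxycycline cells (0.47 (SE 0.0323)).

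Sik1 stood at 19.3, 18.5 and 18.6 CPM in the control libraries, 22.3, 21.7 and 22.6 with doxycycline, 11, 13.2 and 13.5 with dTAG-13 and 15.2, 15.8 and 13.8 with both. Sik1, a kinase that holds CREB coactivators in the cytoplasm, was highest with doxycycline alone and lowest with dTAG-13 alone. It fell with dTAG-13 both without (-0.58 (SE 0.0717)) and with doxycycline (-0.58 (SE 0.0702)). The interaction, the second difference minus the first, was 0.00 (SE 0.1). Its rise with doxycycline among dTAG-13 cells (0.24 (SE 0.0756), edgeR adjusted p = 0.0166) lost its call without both-compound replicate 1 or 2 or dTAG-13 replicate 1 (0.16 to 0.23). Sik1 overlaps the non-coding gene Gm41564.

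Rhob stood at 224.1, 225.2 and 215.9 CPM in the control libraries, 146, 144.7 and 151.9 with doxycycline, 262.5, 264.2 and 264.2 with dTAG-13 and 298, 294.9 and 288.9 with both. Rhob, a short-lived endosomal GTPase, was ordered doxycycline, control, dTAG-13 and both from low to high, with no overlap. It differed by -0.59 (SE 0.0257) with doxycycline against control and rose by 0.16 (SE 0.0247) among dTAG-13 cells (edgeR adjusted p = 5.61e-06). dTAG-13 was followed by a rise both without (0.25 (SE 0.0249)) and with doxycycline (0.99 (SE 0.0256), 1.99-fold). Plaur, the urokinase receptor, was highest in control and differed by -0.39 with doxycycline and -0.26 with dTAG-13. With doxycycline among dTAG-13 cells Plaur missed the threshold (-0.09 (SE 0.0328), edgeR adjusted p = 0.0547) and passed it without dTAG-13 replicate 2 (-0.12), with scaling by library size only and with the length and GC correction. Per1, a repressor of the circadian clock, was higher with doxycycline against control (0.34) and fell with dTAG-13 in both settings (-0.44 and -0.58). Its rise with doxycycline among dTAG-13 cells (0.21 (SE 0.069), edgeR adjusted p = 0.0257) lost its call without both-compound replicate 1 or 2 or dTAG-13 replicate 3 and with scaling by library size only (0.17 to 0.20).

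Doxycycline against control gives the transcripts that differed when the transgene was induced, and is a description here. Fos (2.76-fold lower) and Egr1 (2.56-fold lower) were the 2 members past a 2-fold difference, which 0.147% of all genes passed downwards. Of 41 members 29 were called (70.7%), with percent called over all genes at 33.5. The 19 lower members had a background of 18.7% and the 10 higher ones of 14.8%. The higher members were Fosl2, Klf4, Klf10, Nr4a2, Ier3, Id3, Hes1, Btg1, Sik1 and Per1. The median log2 fold change of the members was -0.19 against -0.01 over all genes tested, and -0.12 without doxycycline replicate 2.

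Doxycycline among dTAG-13 cells asks the same question in the other 6 libraries, with the degrader present for the last 3 h. Here 20 members rose and 4 fell. The largest rises were those of Dusp1, Id3, Csrnp1 and Id2, and the 4 that fell were Fosl1, Klf10, Ier3 and Zfp36l1. The 24 called members were 58.5% of 41 against 20.4% of all genes, and the rises 20 of 41 against 10.7%, the falls 4 of 41 against 9.64%. No member passed a 2-fold difference (0.565% of all genes did). In 21 members every library with both was above every library with dTAG-13 alone (17.6% of all genes) and in 5 every one was below (16.7%). The median was 0.22 against 0.00 over all genes and 0.00 over the 4262 genes with transcripts of 1847 to 3568 nt, the range between the quartiles of member length. The 24 calls became 18 without both-compound replicate 2.

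Set side by side, the doxycycline differences of the members with and without dTAG-13 often had opposite signs. Of the 19 members lower with doxycycline against control, 12 rose with doxycycline among dTAG-13 cells: Jun, Mafk, Egr1, Klf2, Klf6, Ier2, Ier5, Csrnp1, Id1, Dusp1, Trib1 and Rhob. They were 63.2% of those 19 and 60% of the 20 that rose. None of the 19 fell. Over all genes, 248 of the 2414 lower with doxycycline rose among dTAG-13 cells (10.3%, or 1.92% of all tested) and 475 fell (19.7%, or 3.68% of all tested). Both counts of members include the comparison that the choice is taken to have used. Klf4, Id3, Hes1, Sik1 and Per1 were higher with doxycycline in both settings, 5 members where 3.83% of all genes were. Across the 41 members the log2 fold changes of these comparisons, which share no library, had Pearson's r of -0.285 and Spearman's correlation of -0.278, against 0.365 and 0.151 across all 12910 genes. These describe genes within the same libraries and carry no p-value.

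**Figure D4:**
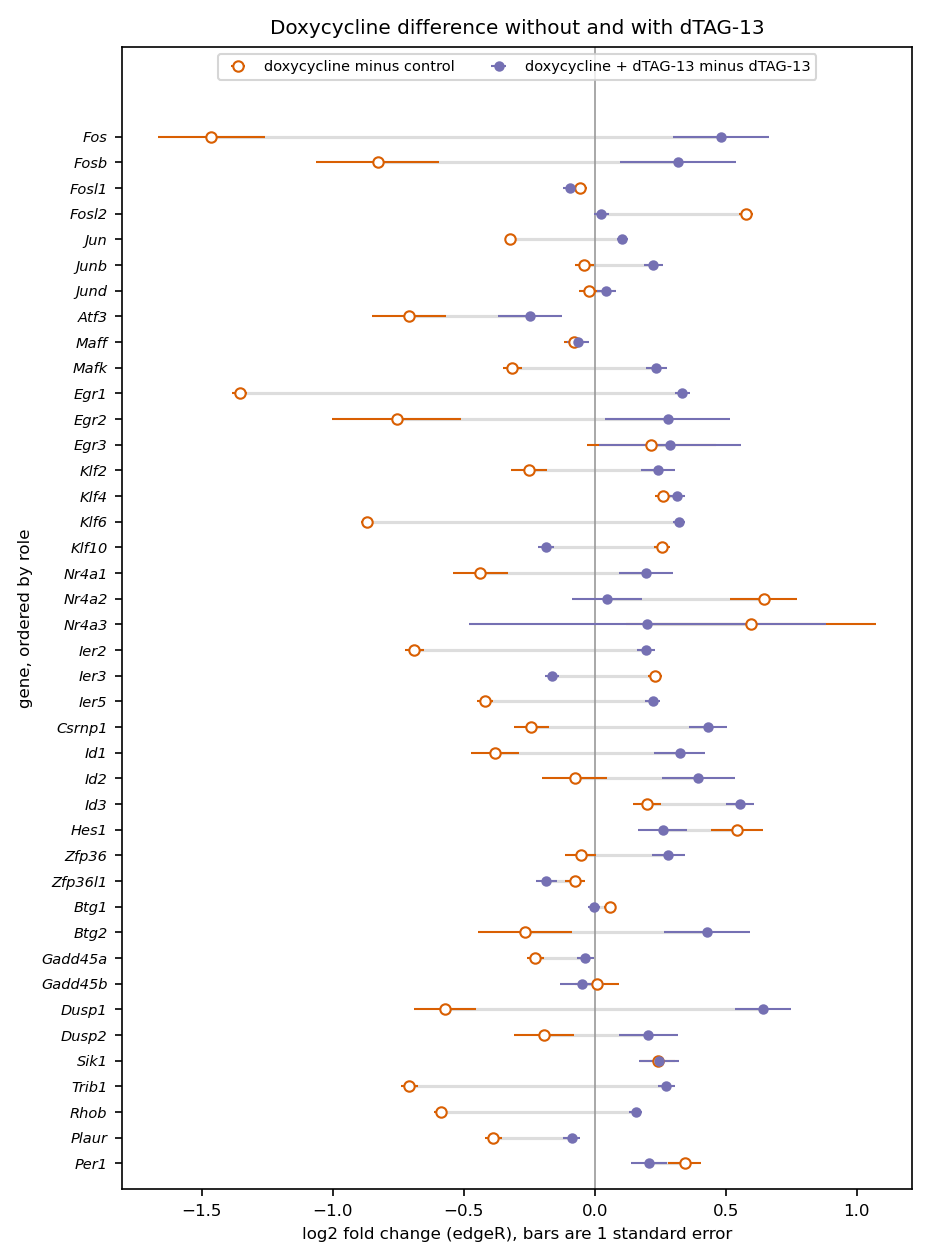
Log2 fold change with 1 SE for doxycycline against control (open orange) and for doxycycline with dTAG-13 against dTAG-13 alone (filled purple), for the 41 tested members ordered by role. Open points lie left of 0 and filled points right of it for Egr1, Klf6, Ier2, Dusp1, Trib1 and Rhob; both lie right of 0 for Klf4, Id3, Hes1, Sik1 and Per1.

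dTAG-13 against control shows what followed 3 h of the degrader with the transgene not induced, and shares the control libraries with the first comparison. More members fell than rose. The 16 that fell were led by Csrnp1, Id2, Sik1, Egr1, Id1 and Trib1, and the 6 that rose were Atf3, Hes1, Klf10, Gadd45a, Rhob and Ier3. The 22 called members were 53.7% of 41, below the 62.1% of all genes, with falls 16 of 41 against 32.1% and rises 6 of 41 against 30%. No member passed a 2-fold difference (1.84% of all genes did). The median was -0.10 against 0.02 over all genes, and 0.05 over genes of the members' length. With scaling by library size only, 11 members rose, the median of the members was -0.01 and that of all genes 0.11.

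When dTAG-13 was added to doxycycline cells, more members rose than fell. Fos, Dusp1, Egr1 and Klf6 rose past 2-fold (2.77, 2.3, 2.18 and 2.13), and Rhob, Atf3, Ier2 and Fosb followed. In all 20 members rose and 9 fell, the latter being Fosl1, Fosl2, Klf10, Nr4a2, Nr4a3, Ier3, Zfp36l1, Sik1 and Per1. The 29 called were 70.7% of 41 against 64.1% of all genes, rises against a background of 30.7% and falls of 33.4%. Nr4a3 was the member that fell past 2-fold (2.4). Over all genes 1.29% rose and 0.17% fell past 2-fold. The median was 0.17 against 0.00 over all genes, and 0.11 with the length and GC correction. The comparison shares the doxycycline libraries with the first, in which several of these genes were low.

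The dTAG-13 differences without and with doxycycline share no library with each other. Fos, Jun, Mafk, Egr1, Klf6, Ier5 and Trib1 fell in the first and rose in the second, 7 members or 43.8% of the 16 that fell and 35% of the 20 that rose. Over all genes 117 of 4144 that fell did so (2.82%, or 0.906% of all tested). Another 10 members were not called in the first and rose in the second, as did 8.31% of all genes: Fosb, Junb, Egr2, Klf2, Nr4a1, Ier2, Id3, Btg2, Dusp1 and Dusp2. Fosl1, Zfp36l1, Sik1 and Per1 fell in both (26.6% of all genes), and Atf3, Gadd45a and Rhob rose in both (21.4%). The members' log2 fold changes had a Pearson's r of 0.279 and a Spearman's correlation of 0.220, against 0.676 and 0.736 across all genes, again as a description.

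**Figure D5:**
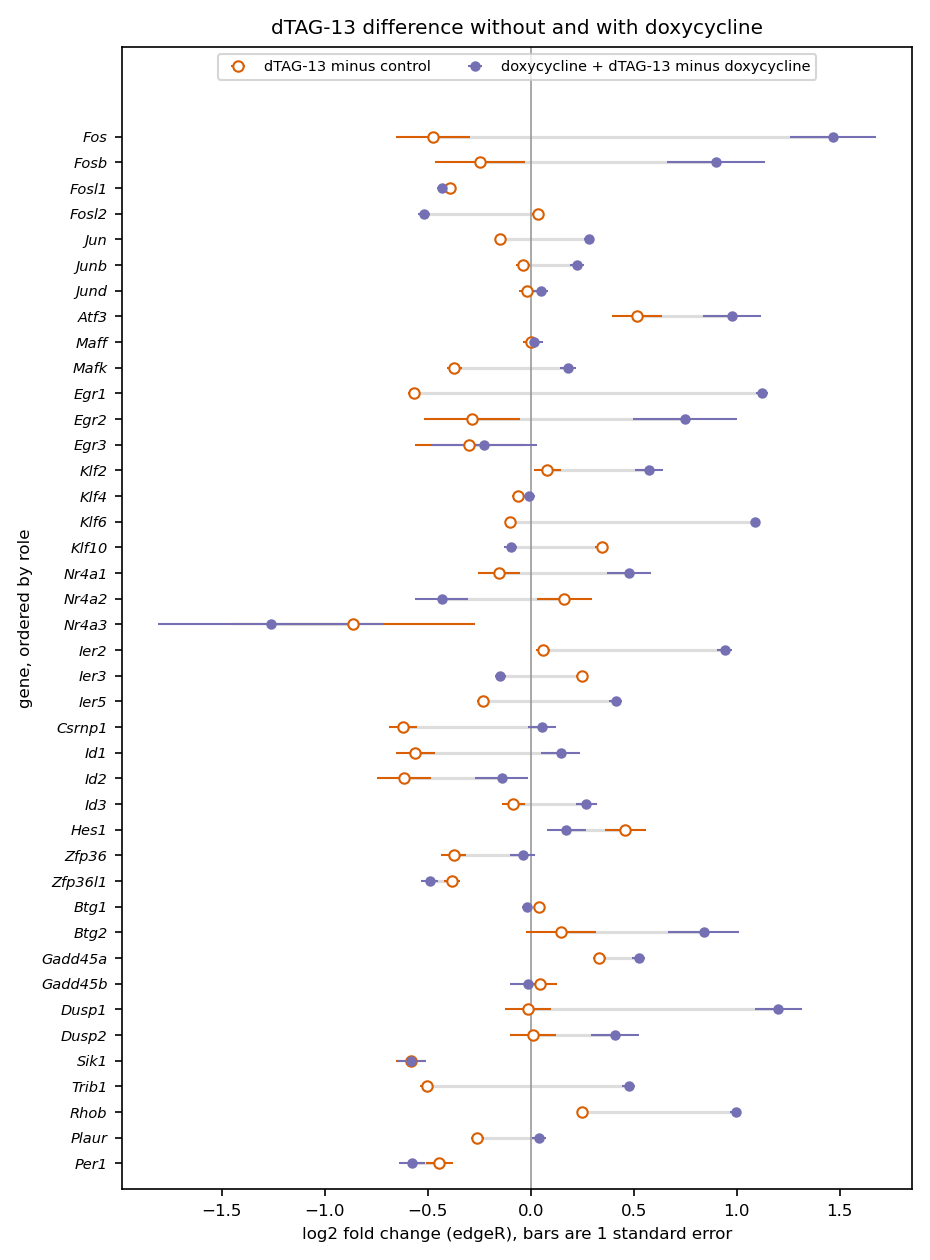
Log2 fold change with 1 SE for dTAG-13 against control (open orange) and for doxycycline with dTAG-13 against doxycycline (filled purple), for the 41 tested members ordered by role. The points for Fos, Egr1 and Trib1 lie on opposite sides of 0, those for Sik1, Fosl1 and Zfp36l1 lie together below 0, and Nr4a3 has the widest bars.

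The difference between the dTAG-13 differences is the interaction, which contains the first comparison and is given as a description. It was called in 26 members (63.4%) against 22.9% of all genes, positive in 22 (background 13.2%) and negative in Fosl2, Klf10, Nr4a2 and Ier3 (background 9.64%). The median was 0.36 in the members and 0.01 over all genes. The largest were 1.95 (SE 0.276) for Fos, 1.69 (SE 0.0394) for Egr1, 1.21 (SE 0.16) for Dusp1 and 1.19 (SE 0.0321) for Klf6.

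Promoter motifs were also counted by direction. Among members that rose with dTAG-13 on doxycycline, 17 had a promoter entry, of which 6 held an EGR site, 2 a CRE and 12 its core. Among those that fell, 6 had an entry, of which 2 held an EGR site, 0 a CRE and 3 the core. Among the remainder, 9 had an entry, of which 5 held an EGR site, 1 a CRE and 4 the core. The numbers are too small for a comparison and none was made.

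Other genes of the same pathways were read from lists. These lists were also chosen with earlier results of these data known. Their shares and p-values may not be free of that choice. Of 26 genes that carry signals to the members (MAP kinases, SRF, ELK, MRTF and CREB family genes), 4 were higher and 4 lower with doxycycline against control (30.8% called against 33.5% of all genes), with a median of -0.02, led by Rps6ka5 (0.45 (SE 0.133)) and Mapk3 (0.37 (SE 0.0388)), an ERK kinase gene. Among dTAG-13 cells 1 rose and 2 fell with doxycycline (11.5% against 20.4%), with a median of -0.02, led by Map2k1 (-0.17 (SE 0.0282), edgeR adjusted p = 1.19e-05) and Elk3 (-0.13 (SE 0.0418), edgeR adjusted p = 0.0259). The gene that rose was Srf (0.11 (SE 0.034), edgeR adjusted p = 0.0128), which was lower with doxycycline against control (-0.26) and is named after its values were seen. With dTAG-13, 17 fell and 3 rose without doxycycline (76.9% called against 62.1%) and 19 fell and 2 rose with it (80.8% against 64.1%), with medians of -0.20 and -0.28 against 0.02 and 0.00 over all genes. The leading falls were Crtc3 (-0.76 and -0.64), a CREB coactivator, with Mrtfa (-0.71), an SRF coactivator, in the first setting and Rps6ka3 (-0.61), a kinase downstream of ERK, in the other. Transcripts of Crtc3, Mrtfa and Rps6ka3 measure 5115, 4392 and 7244 nt, against a median of 3400 nt over all tested genes with a length. The part of transcript length in the dTAG-13 differences of this list was not tested.

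Of 40 further primary response genes outside the 42, 37 were tested. As this list too was chosen with results of these data known, its shares are a description. Ccn1, Cxcl1 and Cebpd are named below for the size of their differences. With doxycycline against control 8 were higher and 16 lower (64.9% called against 33.5% of all genes), with a median of -0.16 against -0.01. Ccn1, a secreted matrix protein and a target of both SRF and YAP, stood at 287.8 ± 4.55 CPM in control, 106 ± 2.42 CPM with doxycycline, 230.2 ± 7.84 CPM with dTAG-13 and 329.4 ± 11.4 CPM with both (SD, n = 3). It differed by -1.44 (SE 0.0285) against control and rose by 1.64 (SE 0.0286) with dTAG-13 among doxycycline cells. Among dTAG-13 cells 9 of the 37 rose with doxycycline and 7 fell (43.2% against 20.4%), with a median of 0.03, led by Cxcl1 (0.86 (SE 0.101), edgeR adjusted p = 1.01e-08), a neutrophil chemokine, and Cebpd (0.76 (SE 0.0586), edgeR adjusted p = 1.71e-13), an acute-phase factor. Both were also higher with doxycycline against control (0.95 and 1.11), unlike Ccn1. With dTAG-13, 11 rose and 18 fell without doxycycline (78.4% called against 62.1%), and 17 rose and 13 fell with it (81.1% against 64.1%), with medians of -0.13 and 0.07.

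Of 15 partner genes of AP-1, 12 were tested. With doxycycline against control 3 were higher and 2 lower (41.7% called against 33.5% of all genes), with a median of 0.02, led by Batf3 (-0.82 (SE 0.292)) and Maf (0.75 (SE 0.116)). Among dTAG-13 cells 3 rose and none fell with doxycycline (25% called against 20.4%): Batf2 (0.32 (SE 0.0646), edgeR adjusted p = 0.000267), Nfe2l2 (0.19 (SE 0.0336), edgeR adjusted p = 4.84e-05) and Atf4 (0.11 (SE 0.0194), edgeR adjusted p = 2.32e-05), the last named outside the rule after its values were seen. With dTAG-13, 2 rose and 6 fell without doxycycline (66.7% called against 62.1%) and 2 rose and 8 fell with it (83.3% against 64.1%), with medians of -0.21 and -0.25 and Atf7 falling most in both (-0.70 and -0.74). Atf7 has a long transcript (7147 nt), and the part of transcript length was not tested for this list either.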

How the data were processed

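Poly(A) RNA from 12 libraries in 4 groups of 3 was measured. The authors deposited a table of raw read counts per Entrez gene, with no normalization. Reads were aligned with Subread per the file headers, and bcl2fastq 2.17, featureCounts and mm10 are named per the submitters' processing notes. The annotation version, the strand setting and the treatment of multi-mapping reads were not given in the sources used here. Symbols came from RefSeq GRCm38.p6 (25275 IDs) and GENCODE M21 (18), and 1886 IDs had none.

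Counts were filtered with filterByExpr by group (12910 genes kept), scaled by TMM and fitted over all 12 libraries with 1 mean per group in edgeR 4.0.16 (R 4.3.3, limma 3.58.1). Robust quasi-likelihood tests were two-sided, with Benjamini-Hochberg adjustment over all tested genes and calls at 0.05. CPM is the read count scaled to the TMM-adjusted library size. Alternatives were RLE factors, scaling by library size only, DESeq2 1.42.0, no filter, a filter of 1 CPM in 3 libraries, only the groups compared, a replicate block, a length and GC correction (splines with 5 degrees of freedom, 11745 genes, 91% of those tested) and leaving out each library. The code was tested on simulated data. Lengths and exons are from GENCODE M21 transcripts.

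The members and lists were chosen with earlier results of these data known. Values per library are given for tested members with a mean of at least 1 CPM that were among the 8 largest absolute log2 fold changes in any of the 4 pairwise comparisons, and for Fos, Egr1, Jun, Atf3 and Dusp1 in any case, which named 17 members. Of each further list and comparison, the 2 called genes with the largest absolute log2 fold change could be named. Tables and plots used pandas 2.3.3, numpy 2.4.6 and matplotlib 3.10.9 under Python 3.11.15.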

Additional observations from a re-analysis of the deposited data

Results flagged for a closer look

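In 26 of the 41 tested members the dTAG-13 difference among doxycycline cells departed from that among control cells by the interaction test of edgeR, at an adjusted p under 0.05. The value given for each is the log2 difference with doxycycline minus that without. It contains the doxycycline and control libraries that the choice of members is taken to have used and is a description. Among the AP-1 and related genes it was 1.95 for Fos (SE 0.276), 1.15 for Fosb, -0.55 for Fosl2, 0.43 for Jun, 0.26 for Junb and 0.55 for Mafk. Among the zinc finger and nuclear receptor genes it was 1.69 for Egr1 (SE 0.0394), 1.03 for Egr2, 0.49 for Klf2, 1.19 for Klf6, -0.44 for Klf10, 0.63 for Nr4a1 and -0.60 for Nr4a2. Among the IER, CSRNP and ID genes it was 0.88 for Ier2, -0.40 for Ier3, 0.64 for Ier5, 0.68 for Csrnp1, 0.70 for Id1 and 0.36 for Id3. Among the regulators of decay, growth and signalling it was 0.33 for Zfp36, 0.69 for Btg2, 0.19 for Gadd45a, 1.21 for Dusp1 (SE 0.16), 0.98 for Trib1, 0.75 for Rhob and 0.30 for Plaur. The call was lost for Egr2 without control replicate 2, doxycycline replicate 2, both-compound replicate 1 or dTAG-13 replicate 2 (0.87 to 0.98), and for Nr4a2 without doxycycline replicate 1 or both-compound replicate 3 (-0.43 and -0.53). Btg2 lost it in 8 of the 12 fits that leave out a library, with scaling by library size only (0.62) and with DESeq2 (0.71), and Gadd45a with the length and GC correction (0.10). Among members not called, Atf3 passed the threshold without control replicate 3 (0.55), Zfp36l1 without control replicate 3 (-0.14) and Btg1 without dTAG-13 replicate 1 (-0.09). Id2 passed it without control replicate 1, both-compound replicate 1 or dTAG-13 replicate 2 (0.55 to 0.66), and Dusp2 without control replicate 2 or 3, doxycycline replicate 1 or dTAG-13 replicate 1 (0.47 to 0.48). With no filter Id2 (0.473) and Dusp2 (0.400) passed it, and Dusp2 also with the replicate block (0.405). Hes1 passed it with the length and GC correction (-0.357). With scaling by library size only Fosl1 (-0.109), Zfp36l1 (-0.181) and Btg1 (-0.132) did.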

How the results depend on the processing

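Of 4046 values of single members recomputed under the alternatives, 3926 kept their side of the threshold, 76 lost a call and 44 gained one, and none of the called values reversed. Leaving out 1 library at a time gave 27 to 29 called members for doxycycline against control, 18 to 24 for doxycycline among dTAG-13 cells, 21 to 25 for dTAG-13 against control, 28 to 29 for dTAG-13 among doxycycline cells and 24 to 28 for the interaction. No other alternative moved a total of called members by more than 1.5 times. Called in each of 20 alternatives were 17 lower and 9 higher members for doxycycline against control, 3 and 14 among dTAG-13 cells, 14 and 6 for dTAG-13 against control and 7 and 18 among doxycycline cells. The 12 members lower with doxycycline and higher with it among dTAG-13 cells were 10 to 12 when a library was left out, and the 7 lower and higher with dTAG-13 were 6 to 8. These counts were added after seeing the data. With scaling by library size only, 7 members were negative in the interaction in place of 4.

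The correlation of deviations between same-numbered libraries of different groups ran from -0.0173 to 0.0814 in 18 pairs. It ran from -0.0627 to 0.0661 in 36 others. These ranges overlap, and such correlations cannot show whether same-numbered libraries shared handling. With the replicate block, 29, 23, 22, 29 and 27 members were called in the 5 comparisons in the order above, against 29, 24, 22, 29 and 26 without it. Depth limits Fos, Fosb, Egr2, Egr3, Nr4a3 and Arc, and with 1 culture per group the spread between cultures is not measured.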
